A study of Mus musculus with 4 samples.

Results

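MHC class II high dendritic-like cells were 216 cells of the 2 bone marrow libraries of the Lin-/CD11b+ sort, out of 4992 cells in those libraries and 8969 cells in the whole series. They were chosen by measured values: the UMIs of Cd74, H2-Aa, H2-Ab1 and H2-Eb1 together made up at least 0.5% of all UMIs of the cell (a UMI, or unique molecular identifier, marks 1 captured RNA molecule). To leave out monocytes, plasmacytoid dendritic cells, B cells and plasma cells, a cell also had to hold at most 2 UMIs of Fn1, at most 1 of Siglech and at most 1 of Cd79a, Cd79b and Ms4a1 together, with Jchain under 0.3% of its UMIs. Of 93 control cells and 286 Tet2 KO cells past the MHC class II limit, the B-cell genes removed 49 and 71, Fn1 removed 4 and 28, Siglech removed 2 and 8, and Jchain removed 0 and 1. The rule left 38 of 1924 control cells and 178 of 3068 Tet2 KO cells.

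The study asked how loss of Tet2, a DNA demethylase often mutated in clonal haematopoiesis, changes blood progenitors and their progeny. Tet2 KO mice carried the floxed gene (Tet2 fl/fl) and Mx1-Cre, and the control mice were Tet2 fl/fl littermates without Cre. Mice of both genotypes were given pI:pC at 12.5 ug/g in 4 doses. This double-stranded RNA mimic induces interferon and through it the Mx1 promoter, which is active in blood cells and in other cell types. Lineage-negative progenitors and CD11b+ cells were sorted from bone marrow and counted with the droplet method of 10x Genomics, in 1 library per genotype, and the labels tie no cell to a mouse and give no age. With 1 library each, genotype, mouse and preparation cannot be told apart, no test between genotypes was possible, and intervals are given at 95% and reflect counting error alone. The cell numbers that the study lists for the control library of this sort and for the Tet2 KO library of the GMP sort (granulocyte-monocyte progenitors) are exchanged relative to the deposited cells, and the deposited libraries were used here.

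Dendritic cells present antigen to T cells. MHC class II molecules are made of an alpha and a beta chain (H2-Aa with H2-Ab1, and H2-Eb1 with its alpha partner), which assemble around the invariant chain Cd74 and exchange its remnant for a foreign peptide in acidic vesicles. Conventional dendritic cells grow from bone marrow progenitors under Flt3 ligand and fall into cDC1, which depend on Irf8 and Batf3 and cross-present antigen to CD8 T cells, and cDC2, which express Irf4 and Zeb2 and mainly serve CD4 T cells.

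The MHC class II genes share a promoter layout in which an X box and a Y box recruit the factors that Ciita, their common co-activator, binds. The promoters of 3 genes of the family are shown because both levels and the choice of cells turn on this family. They are RefSeq sequence of mouse build GRCm38.p6, 100 bases from 110 to 11 bases before the gene start, with the letters GATTGG (the core of the Y box) or AGCAAC (a core of the X box) in capitals, on either strand. H2-Aa lies at chr17:34287834-34287933 (minus strand), H2-Eb1 at chr17:34305757-34305856 (plus strand) and H2-Ob at chr17:34238795-34238894 (plus strand).
H2-Aa: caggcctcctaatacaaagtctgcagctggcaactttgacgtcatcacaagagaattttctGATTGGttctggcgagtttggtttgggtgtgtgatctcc
H2-Eb1: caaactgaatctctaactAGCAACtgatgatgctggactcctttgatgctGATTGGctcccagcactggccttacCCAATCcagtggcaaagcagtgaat
H2-Ob: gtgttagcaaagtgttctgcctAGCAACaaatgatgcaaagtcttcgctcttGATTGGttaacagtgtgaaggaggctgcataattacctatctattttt
GATTGG was found at -49 in H2-Aa, at -60 in H2-Eb1 and at -58 in H2-Ob, with a reverse-strand copy (CCAATC) at -35 in H2-Eb1. AGCAAC stood at -92 in H2-Eb1 and at -88 in H2-Ob. Over the 250 bases before the gene start, 8 of the 8 family genes with a promoter entry (of 9 searched) held GATTGG and 4 held AGCAAC, and the 2 words do not overlap. A gene was counted if any of its entries held the word. For H2-DMa, 1 entry held GATTGG at -199 and another had 0 matches. Among all 32851 promoters of the same length, 14.6% held GATTGG, 12.2% held AGCAAC and 1.96% held both. A match is a description of the letters and not a bound site.

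The chosen cells made up 1.98% of the control library (exact binomial interval 1.40% to 2.70%) and 5.80% of the Tet2 KO library (5.0% to 6.69%). Sort gates and the rule both set such shares, and the genes of the rule were also higher in the other Tet2 KO cells (H2-Aa at 57.8 CPM in other control cells and 111 CPM in other Tet2 KO cells, CPM being UMIs of the gene scaled to 1000000 UMIs of the summed cells), so no change is read from them. B-cell genes, which mark the cells that the rule left out most often, summed to 55587 CPM in the other control cells and 32118 CPM in the other Tet2 KO cells. Over all cells they summed to 54905 and 30767 CPM in the control and Tet2 KO libraries of this sort and to 148 and 149 CPM in those of the GMP sort, so each deposited library held the cells of its labelled sort, while its genotype has no such check. The MHC class II share per chosen cell ran from 0.519% over a median of 2.10% to 8.67% in control cells, and from 0.509% over 2.83% to 8.01% in Tet2 KO cells. Just outside the limit, at 0.4% to 0.5%, stood 6 control and 7 Tet2 KO cells with Cst3 at 9096 and 2504 CPM, and just inside, at 0.5% to 0.6%, stood 5 and 13 cells with Cst3 at 6696 and 5845 CPM.

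The chosen cells summed to 282460 UMIs in control and 1462592 in Tet2 KO, with a median of 6366.5 and 6994.5 UMIs and of 1850 and 2013.5 genes per cell. Their depth was below that of their libraries, whose medians were 11091.5 and 10417 UMIs. The libraries shared 7 cell barcodes, none of them between chosen cells, and 1 control and 3 Tet2 KO cells held 5% or more mitochondrial UMIs. Tet2 itself was low, at 14.2 CPM (4 UMIs, exact Poisson interval 3.86 to 36.3) in control and 30.1 CPM (44 UMIs, 21.9 to 40.4) in Tet2 KO cells, a log2 ratio of 1.09 (-0.37 to 3.03). A 3' count does not read the deleted part of the gene, so it checks nothing about the knockout.

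Markers that the rule did not use were read against all other cells of the same library. Of 14 genes of dendritic cells, 12 were at least 1.5-fold higher in the control cells and 14 in the Tet2 KO cells, on CPM + 10, against 22.6% and 14.5% of 6318 genes with at least 20 UMIs. Of 13 measured cDC1 markers, 11 and 12 were higher, and of 12 cDC2 markers, 7 and 6. Genes of other classes passed the same limit, 9 and 4 of 12 for mature dendritic cells, 3 and 3 of 10 for monocytes, 6 and 1 of 8 for patrolling monocytes (sums of 379 and 210 CPM, against 158 and 179 CPM in other cells) and 5 and 0 of 8 for neutrophils. Of the early progenitor, T, NK and ILC, and erythroid and megakaryocyte lists 2, 1 and 1 genes passed in control and 0 in Tet2 KO, and of the macrophage and the plasmacytoid lists 1 in each library. No marker of granulocyte-monocyte progenitors, basophils and mast cells or eosinophils did. C1qc, Mertk and Cd3e, markers of macrophages and T cells, had 0 UMIs in control and 2, 1 and 3 UMIs in Tet2 KO, while low B-cell and plasma-cell genes are fixed by the rule. The label of dendritic-like cells thus rests on the dendritic-cell and cDC1 genes, and on the cDC2 genes only against all other cells. The cDC2 list summed to 602 and 732 CPM in the chosen cells of control and Tet2 KO. It reached 630 and 795 CPM in cells with more than 1 UMI of Siglech, and 457 and 658 CPM in those with more than 2 of Fn1. The cDC1 list was at 970 and 977 CPM, against 100 and 95.1 CPM and 37.5 and 77.5 CPM in those groups. The exceptions among the dendritic-cell genes in control were Bcl11a and Irf4.

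Cst3, the cystatin C gene that dendritic cells express strongly, was at 15613 CPM in control cells and 12168 CPM in Tet2 KO cells, against 1532 and 1625 CPM in the other cells. Flt3, the receptor of the growth factor for dendritic cells, was at 67.3 CPM (40.5 to 105) and 96.4 CPM (81.1 to 114), against 33.8 and 28.5 CPM. Zbtb46, a factor of conventional dendritic cells, was at 14.2 and 10.9 CPM, against 0.36 and 0.55 CPM. These 3 genes were thus higher in the chosen cells in both libraries, Flt3 and Zbtb46 at low levels.

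Among transcription factors, Id2, which restrains the plasmacytoid fate, was at 1416 and 1132 CPM in the chosen cells of control and Tet2 KO, against 50.3 and 69.8 CPM elsewhere. Batf3, needed for cDC1, was at 223 and 188 CPM, against 2.68 and 3.96 CPM. Irf8, which specifies cDC1 and plasmacytoid cells, was at 1402 and 1008 CPM, against 462 and 341 CPM. The chosen cells and the cells with more than 1 UMI of Siglech (88 control and 97 Tet2 KO cells, which express plasmacytoid genes) differed in Id2 and Tcf4. Id2 was at 65.3 and 54.2 CPM in the Siglech cells, and Tcf4, the plasmacytoid factor, at 407 and 412 CPM there but at 38.9 and 58.1 CPM in the chosen cells. Irf8 was higher in the Siglech cells, at 2504 and 1865 CPM. Against cells with more than 2 UMIs of Fn1 (146 and 368 monocytic cells), the chosen cells had similar Ccr2, a chemokine receptor, at 361 and 416 CPM against 374 and 555 CPM, and much less Lyz2, the lysozyme gene of myeloid cells, at 3416 and 2664 CPM against 13444 and 16037 CPM. Both reference groups are defined by genes that the rule limits, so these values are descriptions.

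The partners of MHC class II were described next, since the rule used only the invariant chain and 3 chains of the presenting molecules. Those rule genes were at 12795 and 13619 CPM for Cd74, 5339 and 5476 CPM for H2-Aa, 5289 and 5990 CPM for H2-Ab1 and 3250 and 4035 CPM for H2-Eb1, in control and Tet2 KO. Of 13 measured partners, 10 were at least 1.5-fold higher than in other cells in each library. Ciita was at 113 CPM (77.5 to 160) and 189 CPM (168 to 213), against 2.05 and 4.82 CPM in other cells. H2-DMa and H2-DMb1, the chains of the peptide exchanger, were at 648 and 856 CPM and at 520 and 639 CPM, against 182 and 197 CPM and 52.8 and 66.6 CPM. H2-Oa and H2-Ob, whose product restrains that exchanger, were lower, H2-Oa at 120 and 143 CPM and H2-Ob at 56.6 and 55.4 CPM, yet above the 13.2 and 14.9 CPM and the 8.93 and 9.46 CPM of other cells. Ctss, the protease that trims the invariant chain, was at 623 and 771 CPM against 152 and 230 CPM. Rfx5, a subunit of the X-box factor, was at 10.6 and 7.52 CPM and was under the 1.5-fold limit in both libraries.

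**Figure D1:**
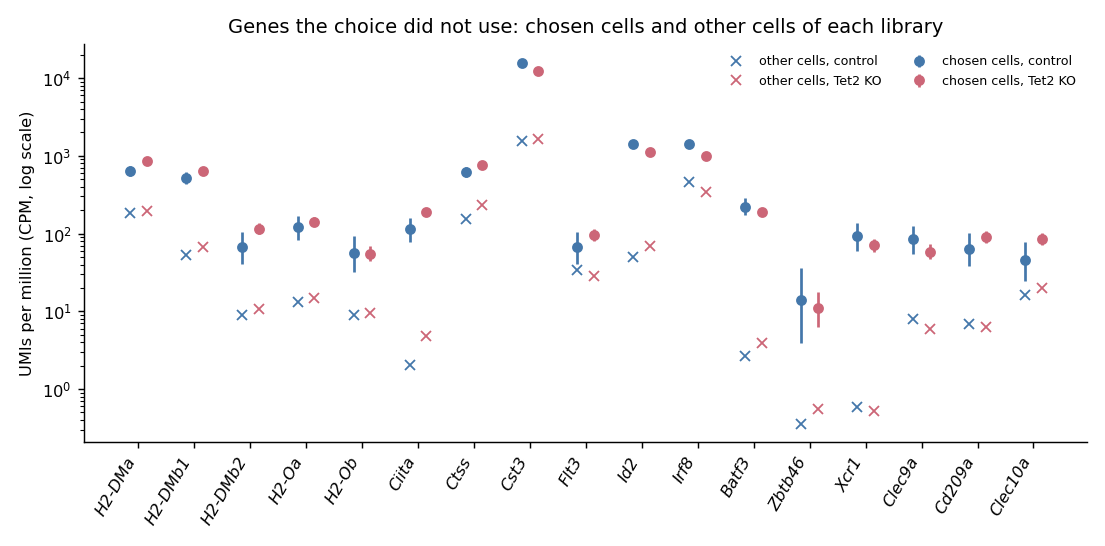
Summed expression of 17 genes that did not enter the choice of cells, in CPM on a log axis: circles are the chosen cells with exact Poisson 95% intervals, crosses all other cells of the same library, blue for control and red for Tet2 KO. For every gene the circle lies above the cross of its library, with the widest gaps for Xcr1, Batf3 and Ciita and the narrowest for Flt3 in control (67.3 against 33.8 CPM).

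The 25 genes that stood out most from the other cells, by the lower of both libraries' ratios of CPM + 10, opened with the 4 rule genes. They were followed by Ckb, Ifi205, Id2, Batf3, Plbd1, Ciita, H2-DMb1, Naaa and Aif1, and then by Xcr1, Cst3, Cxcl9, Phf11b, Rab7b, H2-Oa, Bcl2a1d, Cadm1, Slamf8, Shtn1, Wdfy4 and Pid1. Ckb, brain-type creatine kinase, was at 333 and 366 CPM against 7.37 and 12.4 CPM. Plbd1, a phospholipase-like lysosomal protein, was at 421 and 434 CPM against 15 and 21.9 CPM. Wdfy4, needed by cDC1 for cross-presentation, was at 149 and 155 CPM against 17.5 and 21.1 CPM. Cxcl9, a chemokine that draws T cells, came from few cells: 2 control and 18 Tet2 KO cells held a UMI, and 1 control cell held 83.3% of its control UMIs.

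Many of these genes were seen in part of the cells only. In cells thinned to 5000 UMIs, Batf3 had a UMI in 68.4% of control and 50% of Tet2 KO chosen cells (73.7% and 63.5% unthinned). Flt3 was seen in 26.3% and 37.1% (36.8% and 49.4% unthinned), Ciita in 42.1% and 56.2% (50% and 67.4%), and Clec9a, a receptor of cDC1 for dead cells, in 39.5% and 21.9% (50% and 32.6%). As a measure of free RNA, neutrophil cells of the same libraries (156 and 186 cells with at least 5% of UMIs from S100a8 and S100a9, median 8869.5 and 9025 UMIs) were thinned likewise. There Batf3 was seen in 0% of cells, Flt3 in 3.85% and 0.538%, Ciita in 0% and 0.538%, and Clec9a in 0% and 0.538%. H2-Aa reached 5.77% and 4.84% of those neutrophils, far below the 100% of chosen cells that the rule all but fixes.

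The cells formed a series from low to high MHC class II share. In bins of 0.5% to 1%, 1% to 2%, 2% to 4% and 4% or more, there were 10, 7, 6 and 15 control cells and 37, 31, 49 and 61 Tet2 KO cells. The cDC1 markers summed to 269 CPM (177 to 391) in the lowest and 1709 CPM (1459 to 1990) in the highest bin of control, and to 378 CPM (315 to 450) and 1625 CPM (1511 to 1745) in Tet2 KO. The partners of MHC class II summed to 1194 CPM (990 to 1428) and 3295 CPM (2943 to 3676) in control and to 1948 CPM (1801 to 2104) and 3977 CPM (3797 to 4162) in Tet2 KO. Both lists were thus higher at the high end of the series in both libraries, a comparison within the measure that chose the cells and given without a test. The lowest bin of control included 2 cells rich in neutrophil genes, described below. They held 0 UMIs of cDC1 markers and 33 of the 120 partner UMIs of that bin. Such cells also lay in the lowest Tet2 KO bin, where the neutrophil list was at 28382 CPM, against 127467 CPM in control. The bins were not computed without these cells, which lower the cDC1 and partner values of the lowest control bin.

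Genes of the cell cycle ran the other way. S-phase genes summed to 2259 CPM in the lowest and 453 CPM in the highest bin of control and to 2336 and 811 CPM in Tet2 KO. Genes of G2 and mitosis summed to 5913 and 896 CPM in control and to 6043 and 2132 CPM in Tet2 KO, with the bin of 2% to 4% still at 6788 CPM in the 6 control cells it held. Xcr1, the chemokine receptor of mature cDC1, had 0 UMIs in the lowest bin of both libraries (at most 36.7 and 11.1 CPM) and was at 247 and 173 CPM in the highest. Ciita was at 29.9 and 75.1 CPM in the lowest and at 216 and 339 CPM in the highest bin. The cDC2 markers gave no common order, at 547 and 834 CPM in the end bins of control and 844 and 574 CPM in those of Tet2 KO. Monocyte markers were at 3912 and 1184 CPM in the end bins of control and at 2588 and 1105 CPM in those of Tet2 KO. In the lowest bin of control, the 2 cells rich in neutrophil genes held 213 of the 393 monocyte UMIs. The monocyte list was at 5787 CPM in those 2 cells, so they raise the value of that bin, which was not computed without them. The size of the control difference in monocyte markers is thus not read.

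**Figure D2:**
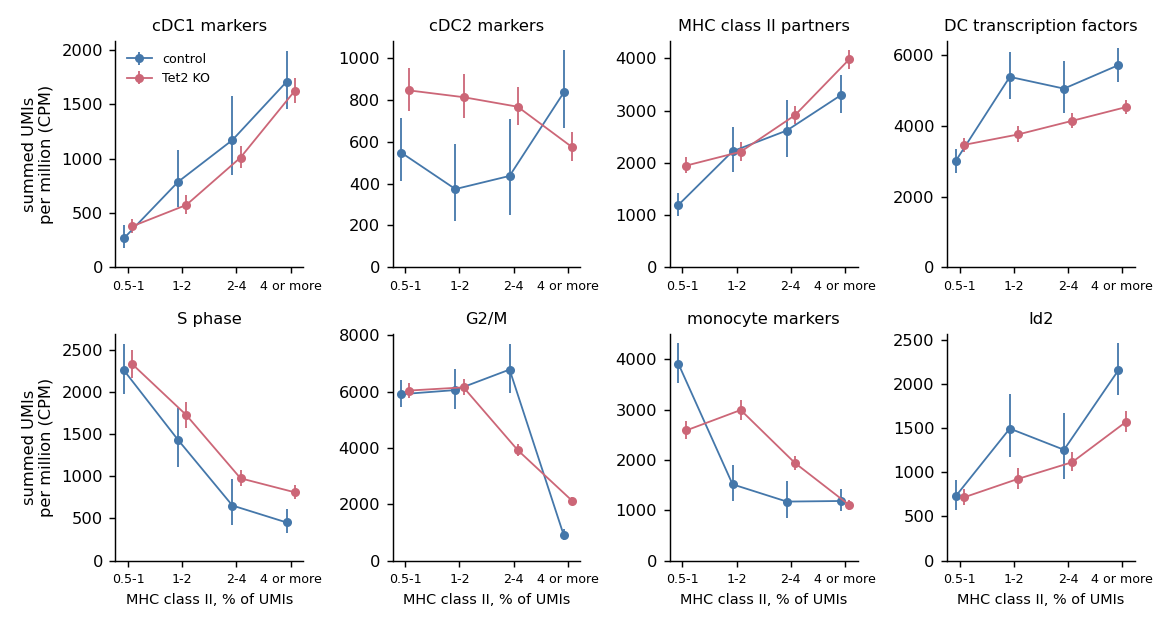
Summed CPM of gene lists and genes (1 panel each, linear axes from 0) in chosen cells binned by the percent of their UMIs from the 4 MHC class II genes of the rule; points are libraries (blue control, red Tet2 KO) with exact Poisson 95% intervals. From the lowest to the highest bin the cDC1 markers go from 269 to 1709 CPM in control and from 378 to 1625 CPM in Tet2 KO, while S-phase genes go from 2259 to 453 CPM and from 2336 to 811 CPM. The lowest bin of control includes 2 cells rich in neutrophil genes, which hold 0 UMIs of cDC1 markers.

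Clustering of the 216 cells (Leiden, resolution 0.8) gave 6 clusters, named only from the marker lists. Cluster 0, with 69 cells, was cDC1-like, a name that was lost at resolutions 0.4 and 1.2, and cluster 1, with 52 cells, was cDC2-like, a name lost at 0.4. At 1.2 a cluster of 37 cells still scored highest for cDC1, with 12 markers at least 1.5-fold higher. It stayed unnamed because another list had 4 genes in its top 10, against 2 for cDC1. Clusters 2 and 3, with 33 and 32 cells, were led by mitotic genes (Ube2c, Cenpf, Ccnb1) and by genes of DNA synthesis (Rrm2, Tyms, Lig1) and stayed unnamed, as did cluster 4 with 20 cells. Cluster 4 scored highest for early progenitors, with 9 markers at least 1.5-fold higher, but another list had 2 genes in its top 10, against 1. The early progenitor list summed to 442 CPM there, against 156, 82.2, 118 and 205 CPM in clusters 0 to 3. In cluster 4, 1 cell held 82.4% of the UMIs of Myl10, 90% of Car2 and 84.6% of Ctla2a, its leading genes. Cluster 5, with 10 cells, was led by neutrophil genes, which 5 of its cells held. The top 10 genes of cluster 0 also held 4 genes of mature dendritic cells (Ccl22, Ccr7, Il12b and Fscn1), as many as cDC1 markers, which came mostly from 1 control cell described below.

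Markers of the 2 types of conventional dendritic cells were also counted in single cells. In cluster 0, 66 of 69 cells held more UMIs of cDC1 than of cDC2 markers, and in cluster 1, 50 of 52 cells held more cDC2 UMIs. The same lists named both clusters and could enter the clustering, so this match was largely set in advance and is a description. At 5 or more UMIs, 23 of 38 control and 101 of 178 Tet2 KO cells had cDC1 markers, 10 and 76 had cDC2 markers, 2 and 17 had both, and 7 and 18 had neither. The cycling cells were of both kinds: 15 cells of cluster 2 held more cDC1 and 16 more cDC2 UMIs, and in cluster 3 these were 24 and 6 cells.

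**Figure D3:**
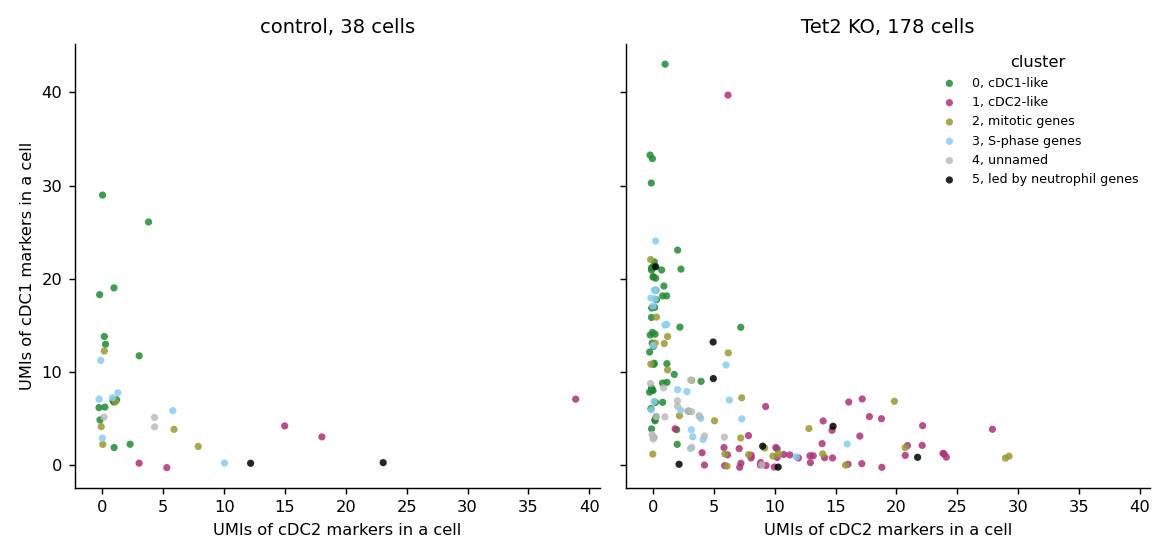
Each point is 1 chosen cell, placed by its UMIs of cDC2 markers (horizontal) and of cDC1 markers (vertical), with a small jitter, for the 38 control cells (left) and the 178 Tet2 KO cells (right), and coloured by cluster. Most cells lie along 1 of the axes, and 2 control and 17 Tet2 KO cells hold 5 or more UMIs of both lists.

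Cluster 0 and cluster 1 were described by genes of both libraries together, as values with no test, since every gene could enter the clustering. Irf8 was at 1562 CPM (1452 to 1677) in cluster 0 and 204 CPM (160 to 257) in cluster 1, Id2 at 2108 and 380 CPM, and Cst3 at 21607 and 4992 CPM. In the other direction stood Zeb2, a repressor with roles in monocytes and cDC2, at 8.31 and 204 CPM, and Irf4, at 2.08 and 56.7 CPM. Tlr3, the sensor of double-stranded RNA in cDC1, was at 120 and 8.51 CPM, and the cDC2 lectins Clec10a and Cd209a were at 2.08 and 292 CPM and at 4.15 and 269 CPM. Csf1r, the receptor of the monocyte growth factor, was at 10.4 and 105 CPM. The monocyte list summed to 862 CPM (781 to 949) in cluster 0 and 3016 CPM (2838 to 3203) in cluster 1. In the other cells of the control and Tet2 KO libraries that list was at 2936 and 3530 CPM. The list of dendritic-cell genes, which includes Cst3, summed to 28761 CPM in cluster 0 and 7212 CPM in cluster 1. Batf3 was higher in cluster 0 but not absent from cluster 1, at 318 and 90.7 CPM. Ciita was similar in both, at 255 CPM (212 to 305) and 301 CPM (246 to 363), and the MHC class II partners summed to 3148 CPM (2991 to 3310) and 4454 CPM (4236 to 4680).

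Interferon-stimulated genes separated the clusters as well. Their sum was 2637 CPM (2494 to 2786) in cluster 0, 8769 CPM (8462 to 9083) in cluster 1, 5084 CPM (4844 to 5332) in cluster 2 and 1841 CPM (1688 to 2005) in cluster 3. Ifitm3, an antiviral membrane protein, made up much of that difference, at 961 CPM in cluster 0 and 4845 CPM in cluster 1. S-phase genes summed to 4041 CPM in cluster 3 against 559 CPM in cluster 0 and 445 CPM in cluster 1, and genes of G2 and mitosis to 13174 CPM in cluster 2 against 1302 and 686 CPM.

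Genes of mature, migrating dendritic cells came from few cells. Ccr7, the receptor that guides such cells to lymph nodes, had 27 UMIs in control, Fscn1, an actin bundler, 36, the chemokine Ccl22 23 and the cytokine gene Il12b 14, and all of these came from 1 control cell. Of the 63 UMIs of Ccl17 in Tet2 KO, 98.4% came from 1 cell. For Ccr7, Fscn1, Ccl22 and Il12b together, 1 control and 2 Tet2 KO cells held 5 or more UMIs, and for all 12 genes of the mature list, 3 and 10 cells did. That list had 238 UMIs in control, 76.9% of them in 1 cell, and 304 in Tet2 KO, 20.7% in 1 cell, so the ratio between libraries for these genes rests on single cells and is not read.

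Neutrophil genes were concentrated in 5 cells, all in cluster 5. The neutrophil list had 12856 UMIs in control cells, 99.4% of them in 2 cells, and 15082 in Tet2 KO cells, 79.1% in 2 cells, with a median of 2 UMIs per cell in both. Those 2 control cells and 3 Tet2 KO cells had from 31.2% to 39.6% of their UMIs from the list, at depths from 6866 to 23296 UMIs. The other 5 cells of cluster 5, all Tet2 KO, had from 0.0158% to 0.226%, at 6320 to 22996 UMIs. The cluster had a median of 18078 UMIs and a median MHC class II share of 0.934%. Its cells held 13% and 8.94% of the UMIs of the chosen cells in control and Tet2 KO, so results below are also given without them. Doublets were not called, and their part in this cluster was not tested.

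Cluster 0 held 15 control and 54 Tet2 KO cells (39.5%, 24.0% to 56.6%, and 30.3%, 23.7% to 37.7%, of the chosen cells), and cluster 1 held 5 and 47 (13.2%, 4.41% to 28.1%, and 26.4%, 20.1% to 33.5%). Saa3 and Oasl2, among the leading genes of cluster 1, were also higher in the other Tet2 KO cells (Saa3 at 1.34 CPM in control and 23.4 CPM in Tet2 KO, Oasl2 at 4.29 and 9.27 CPM), so no change is read from these sizes. Cluster 2 held 6 and 27 cells, cluster 3 held 7 and 25, cluster 4 held 3 and 17 and cluster 5 held 2 and 8.

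Between genotypes, 6318 genes had at least 20 UMIs in the chosen cells of both libraries together, with a median log2 ratio of 0.08 (Tet2 KO over control, CPM + 1). Of these, 1205 genes (19.1%) were at least 1.5-fold higher and 761 (12%) at least 1.5-fold lower in Tet2 KO. These shares are the background for the lists below. Among 1967 genes with at least 100 UMIs they were 8.64% and 4.88%.

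Immediate early genes, which cells switch on within minutes of a stimulus or of handling, were lower in the Tet2 KO cells. Of 18 such genes tested, 10 were at least 1.5-fold lower and 0 higher, the median log2 ratio was -0.68, and their sum was 4050 CPM (3819 to 4292) in control and 2337 CPM (2259 to 2417) in Tet2 KO. Fos, a subunit of AP-1, was at 917 CPM (36 of 38 cells) and 425 CPM (144 of 178 cells), a log2 ratio of -1.11 (-1.32 to -0.89). Ier2 was at 400 and 159 CPM (-1.33, -1.66 to -0.99), Dusp1, a phosphatase that ends MAP kinase signals, at 198 and 79.3 CPM (-1.32, -1.79 to -0.83), and Btg2, an inhibitor of proliferation, at 258 and 116 CPM (-1.15, -1.56 to -0.74). Nfkbia, an inhibitor of NF-kB, was at 202 and 204 CPM.

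The sum of the immediate early list was lower in Tet2 KO in each of the 6 clusters. It was 4292 CPM (3894 to 4719) and 2397 CPM (2244 to 2558) in cluster 0, 5301 CPM (4499 to 6204) and 3283 CPM (3088 to 3486) in cluster 1, and 3973 CPM (3449 to 4554) and 1372 CPM (1226 to 1530) in cluster 3. In cluster 2 the intervals overlapped, at 2563 CPM (2130 to 3059) and 2118 CPM (1952 to 2294). The other cells of the libraries differed the same way by less, with sums of 2285 CPM in control and 1735 CPM in Tet2 KO.

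Interferon-stimulated genes were higher in Tet2 KO: of 24 tested, 10 were at least 1.5-fold higher and 1 lower (Slfn8), with a median log2 ratio of 0.44. The list summed to 3551 CPM (3335 to 3778) in control and 4463 CPM (4355 to 4572) in Tet2 KO. Isg15, a ubiquitin-like protein, was at 28.3 CPM (4 of 38 cells) and 101 CPM (51 of 178 cells), a log2 ratio of 1.83 (0.81 to 3.07). Ifi27l2a was at 386 and 720 CPM (0.90, 0.61 to 1.2), and Xaf1, a pro-apoptotic protein, at 10.6 and 41.7 CPM (1.97, 0.36 to 4.29). Ifitm3, the most abundant member, was at 1976 and 2104 CPM (0.09, -0.04 to 0.22).

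The other cells showed a difference of the same sign, with sums of 1375 CPM in control and 2215 CPM in Tet2 KO. Within the chosen cells it was not seen in every cluster. The sums of control and Tet2 KO were 2905 CPM (2580 to 3260) and 2567 CPM (2409 to 2733) in cluster 0, 8207 CPM (7202 to 9314) and 8819 CPM (8499 to 9149) in cluster 1, 2025 CPM (1656 to 2451) and 1801 CPM (1633 to 1981) in cluster 3, and 2576 CPM (1872 to 3458) and 2708 CPM (2406 to 3038) in cluster 4. In these 4 clusters the intervals of the libraries overlapped. In cluster 2 the sum was higher in Tet2 KO, at 2793 CPM (2340 to 3308) and 5472 CPM (5202 to 5751), and in cluster 5 it was lower, at 5189 CPM (4479 to 5979) and 3272 CPM (2969 to 3597). Cluster 1, where these genes were highest, held 5 of 38 control and 47 of 178 Tet2 KO cells.

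Partners of MHC class II were slightly higher in Tet2 KO. Of 10 partners of MHC class II tested, 3 were at least 1.5-fold higher and 0 lower, with a median log2 ratio of 0.30 and sums of 2276 CPM (2104 to 2459) and 2893 CPM (2807 to 2982). Those 3 were Ciita, with a log2 ratio of 0.74 (0.21 to 1.32), H2-DMb2, with 0.79 (0.10 to 1.56), and Rfxap, a subunit of the X-box factor, with 0.95 (-0.52 to 2.89, 4 and 40 UMIs). H2-DMa (0.40, 0.18 to 0.63) and Ctss (0.31, 0.08 to 0.54) were higher by less. Of 21 genes of MHC class I and peptide loading, 2 were higher and 0 lower, a smaller part than among all genes, with a median of 0.24, and Tap1, a subunit of the peptide pump, was at 99.1 and 170 CPM. In other cells the MHC class II partners summed to 461 CPM in control and 584 CPM in Tet2 KO. Within clusters their sums were 2975 CPM (2646 to 3334) and 3193 CPM (3016 to 3377) in cluster 0, 3522 CPM (2875 to 4272) and 4538 CPM (4309 to 4776) in cluster 1, 1917 CPM (1546 to 2352) and 2309 CPM (2135 to 2493) in cluster 2, and 1427 CPM (1121 to 1792) and 2039 CPM (1860 to 2229) in cluster 3. In cluster 4 the order turned, at 2634 CPM (1922 to 3525) and 2122 CPM (1855 to 2416). The intervals were thus apart in clusters 1 and 3 and overlapped in the other 4.

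Genes that define dendritic cells had no common direction. Of 21 transcription factors tested, 4 were at least 1.5-fold higher, 1 (Relb) was lower, and the median was -0.01. Irf8 was lower in Tet2 KO, with a log2 ratio of -0.48 (-0.64 to -0.31), as in the other cells of the libraries (-0.44), and so were Id2 (-0.32, -0.48 to -0.16) and Cst3 (-0.36, -0.41 to -0.31). Within cluster 0, Irf8 was at 1829 CPM (1573 to 2115) in control and 1492 CPM (1372 to 1619) in Tet2 KO, and Id2 at 2292 and 2060 CPM. Bcl11a, a factor of lymphoid and plasmacytoid development, was higher, at 42.5 CPM (9 of 38 cells) and 154 CPM (98 of 178 cells), a log2 ratio of 1.86 (1.02 to 2.83). In thinned cells Bcl11a was seen in 15.8% and 44.4%, and in other cells its ratio was 0.47.

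The class markers gave medians of 0.06 for 11 cDC1 genes and 0.47 for 8 cDC2 genes. Of the cDC1 genes 3 were higher and 0 lower, and of the cDC2 genes 1, Clec10a, was higher, at 46.0 and 86.1 CPM (0.90, 0.08 to 1.85). Xcr1 was at 92.0 CPM (60.1 to 135) and 70.4 CPM (57.5 to 85.4), and Clec9a at 85 CPM (54.4 to 126) and 58.8 CPM (47.0 to 72.6), with overlapping intervals. Naaa, a lysosomal amidase of dendritic cells, was at 333 and 576 CPM (0.79, 0.48 to 1.12). Within cluster 0 Naaa was at 633 CPM (487 to 810) in control and 1361 CPM (1246 to 1483) in Tet2 KO. The other cells of the libraries differed the same way in Naaa, at 31.3 and 50.6 CPM, a log2 ratio of 0.67.

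Among surface and secreted proteins, 8 of 19 chemokines and receptors were at least 1.5-fold lower and 3 higher in Tet2 KO, with a median of -0.38. Ccr7, Ccl22 and Cxcl16 belong to those 8 and rest on 1 control cell for 100%, 100% and 81.0% of their control UMIs. Ccl6, a chemokine of myeloid cells, was at 258 CPM (23 of 38 cells) and 152 CPM (67 of 178 cells), a log2 ratio of -0.76 (-1.15 to -0.36). Of 18 cytokine receptors, 3 were higher and 3 lower, among the latter Csf2ra, the receptor chain for GM-CSF, at 127 and 81.4 CPM (-0.65, -1.2 to -0.07). Of 8 co-stimulatory genes 1 was higher and 3 lower, among them Cd86, at 53.1 and 28.0 CPM (-0.92, -1.81 to 0.04).

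Genes of general cell functions differed little. Of 24 S-phase genes 4 were higher and 0 lower (median 0.16), of 25 genes of G2 and mitosis 1 was higher and 3 lower (-0.01), and of 21 lysosomal genes 2 were higher and 0 lower (-0.02). None of 81 ribosomal protein genes passed 1.5-fold in either direction (median 0.18), and 1 of 76 genes of oxidative phosphorylation did, upward (0.19). Of 12 genes of DNA methylation and demethylation, 3 were higher and 1 lower (0.25). Tet3 was at 24.8 and 35.6 CPM and Dnmt1, the maintenance methyltransferase, at 46.0 and 59.5 CPM, with overlapping intervals for both.

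**Figure D4:**
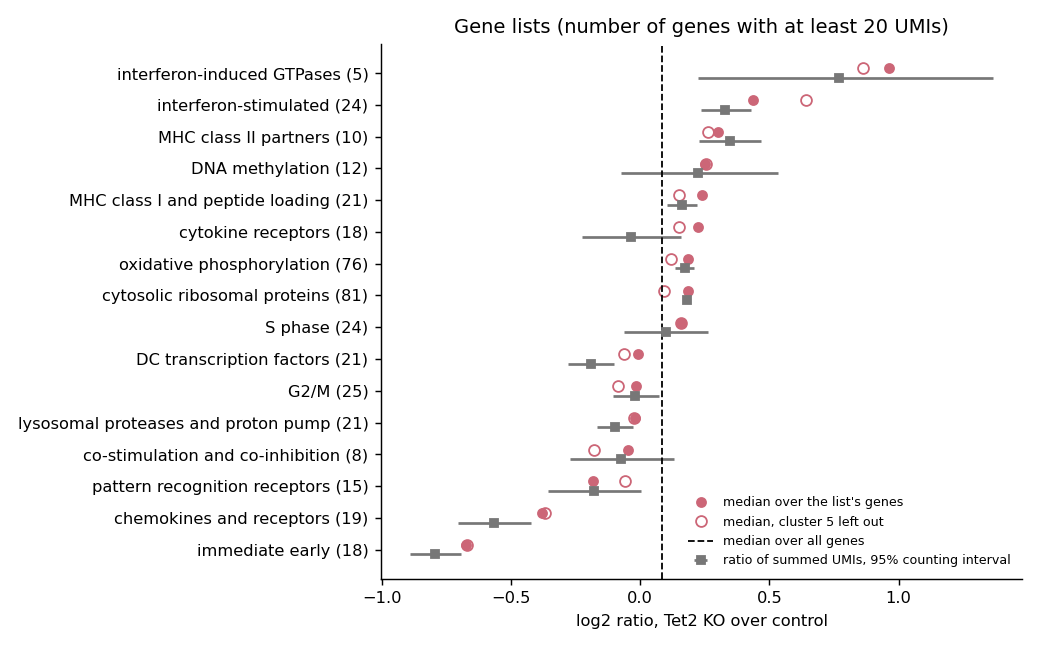
Log2 ratio of Tet2 KO to control for each gene list, with the number of genes tested in brackets: filled circles are medians over the genes (CPM + 1), open circles the same without cluster 5, squares the ratio of summed UMIs with its exact 95% counting interval, and the dashed line the median of all genes (0.08). Of the lists plotted, the immediate early list has the lowest median, at -0.68, and a ratio of sums of -0.79 (-0.89 to -0.70), and the interferon-stimulated list has a median of 0.44, or 0.64 without cluster 5.

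Genes were also ranked one by one, among those with at least 100 UMIs in the chosen cells of 1 library. The 12 highest in Tet2 KO were Saa3, Mpo, Ifitm1, Mcpt8, Elane, Supt16, Bcl11a, Isg15, Oxct1, Anapc5, Uchl3 and Klrd1. Saa3, an acute-phase protein, had 0 UMIs in control and 266 UMIs in 5 Tet2 KO cells, of which 1 cell held 54.1%. Against a floor of 3 UMIs in control, its log2 ratio was at least 4.10. Ifitm1, an interferon-induced membrane protein, was more widespread, at 60.2 CPM (6 of 38 cells) and 442 CPM (89 of 178 cells), a log2 ratio of 2.88 (2.19 to 3.66), against 0.75 in the other cells. Klrd1, a lectin of NK cells, was at 63.7 CPM (9 cells) and 168 CPM (91 cells). Supt16, a histone chaperone, was at 21.2 CPM (6 cells) and 80.0 CPM (77 cells).

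Mpo and Elane, granule genes of early granulocytes, had log2 ratios of 3.01 and 2.49, and 1 Tet2 KO cell held 32.9% and 53.3% of their UMIs. Without cluster 5 these ratios were 1.37 (0.08 to 3.04) and 0.44 (-0.58 to 1.63). Mcpt8, a basophil protease, came to 88.7% from 1 Tet2 KO cell. These 3 genes thus turned on few cells, and the granulocyte-monocyte progenitor list (5 of 6 genes higher, median 1.24) had a median of -0.01 without cluster 5. The 5 Tet2 KO cells of that cluster that lacked neutrophil genes held 221 of the 292 Mpo and 195 of the 261 Elane UMIs, and without only the cells that held neutrophil genes the list's median was 1.61.

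The 12 lowest in Tet2 KO were Camp, Wfdc21, Ngp, Ltf, S100a8, S100a9, Ifitm6, Hp, Apoe, Lcn2, Ier2 and Dusp1. All but the last 2 are granulocyte genes or, for Apoe, a lipid carrier of macrophages, and 1 control cell held from 38.5% (Ifitm6) to 78.7% (Camp) of the control UMIs of those 10. S100a8, a calcium-binding protein of neutrophils, was at 20502 and 4736 CPM, a log2 ratio of -2.11 (-2.16 to -2.06), and at 0.34 (-0.28 to 1.03) without cluster 5. Apoe and Hp, a haptoglobin of granulocytes and liver, also turned, to 1.09 (0.46 to 1.79) and 0.64 (-0.26 to 1.69). Without that cluster, 8 of the 12 highest genes but 2 of the 12 lowest kept their place in the rankings. The lowest were then Fabp5, a fatty acid carrier (-1.33), Dusp1 (-1.27), Ier2 (-1.19), Btg2 (-1.18) and Fos (-1.08), followed by others that include Fdps, Btg1, S100a10, Aldoa, Cytip and AC140186.1. Of these, Fabp5 rests to 49.1% on 1 control cell, while S100a10, a partner of annexin A2, was seen in 37 of 38 control and 156 of 178 Tet2 KO cells, at 1423 and 816 CPM in all chosen cells. The genes that entered the highest were Cd300c2, Ms4a6b, Rsrp1 and Tceal9.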

How the data were processed

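Droplet RNA-seq of mouse bone marrow was used, 1 library per genotype. The deposited values are raw UMI counts per gene and cell (18695 genes, 8969 cells), which the authors made with Cell Ranger 3.1.0 and filtered in Seurat; the submitters' processing notes name build mm10. The lowest cell had 5003 UMIs. The members of the group and the gene lists were chosen with earlier results of these data known.

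UMIs were summed per library and scaled to CPM, with exact Poisson, binomial and conditional binomial intervals in Python 3.11.15, numpy 2.4.6, scipy 1.17.1 and pandas 2.3.3. Clusters used counts scaled to 10000 per cell, 2000 variable genes, 30 components and 30 neighbours (scanpy 1.11.5, leidenalg 0.10.2, igraph 0.11.9, scikit-learn 1.9.0, seed 1). A cluster was named after the marker list with the highest mean log2 ratio of CPM + 10 to the other chosen cells. That list needed 3 or more genes that were 1.5-fold higher and in at least 5% of the cells. It also needed at least 1 gene among the 10 leading genes of the cluster, and no other list could have more there. Cells were thinned to 5000 UMIs for shares. Doublets were kept. Named genes were the listed ones, the 25 leading genes of the cells, the 10 of a cluster, and the 12 highest and 12 lowest ratios of CPM + 1 with at least 100 UMIs. Ratio scripts were tested on simulated data. TMM factors came from edgeR 4.0.16 in R 4.3.3, and figures from matplotlib 3.10.9. Xist was seen in 97.9% and 98.6% of the cells of the control and Tet2 KO libraries, and Kdm5d in none of the chosen cells.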

Additional observations from a re-analysis of the deposited data

Results flagged for a closer look

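The GMP sort of the series was not part of the comparisons above and is gated on progenitors that precede dendritic cells. The rule found 9 of 1258 cells in the control GMP library (0.715%, exact binomial interval 0.328% to 1.35%) and 9 of 2719 cells in the Tet2 KO GMP library (0.331%, 0.151% to 0.627%). Their median MHC class II share was 5.92% and 5.90%, above the medians of 2.10% and 2.83% in the Lin-/CD11b+ libraries. All 9 cells of each library held 5 or more UMIs of cDC1 markers, with a median of 27 and 16 UMIs, and Xcr1 was found in 9 of 9 and 8 of 9 cells, at 331 and 332 CPM. Cst3 was at 27681 and 20925 CPM, and Cd209a and Clec10a, the cDC2 lectins, had 0 UMIs in both. Kit, on which the gate selects, had 0 and 6 UMIs. Cells outside the gate and free RNA were not tested as sources.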

How the results depend on the processing

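No paired analysis was possible because each genotype has 1 library of the sort. With 38 control cells, depth limits every ratio. Ratios here are log2 of CPM + 1, Tet2 KO over control. The Tet2 KO share of chosen cells was 4.60% with at least 1% MHC class II UMIs and 4.27% with no UMI of Fn1, Siglech and B-cell genes. Leiden resolution 0.4 gave no cDC1-like or cDC2-like cluster but a mature DC-like one of 141 cells and one led by neutrophil genes. The latter held 39.5% and 33.7% of control and Tet2 KO cells, of which 5 cells held 100 or more neutrophil UMIs. Of all chosen cells, 3 control and 10 Tet2 KO cells held 5 or more UMIs of the 12 mature genes, with a median of 0. The mature name thus does not describe most of the 141 cells. Resolution 1.2 gave no cluster named cDC1-like, though 37 cells formed a cluster that scored highest for cDC1. With 15 neighbours a mature DC-like cluster of 22 cells appeared, a name under the same limit. Classed by marker UMIs, 65.8% and 56.2% of control and Tet2 KO cells were cDC1. By the same measure 26.3% (13.4% to 43.1%) and 41.6% (34.2% to 49.2%) were cDC2, with overlapping intervals. Genes 1.5-fold higher and lower were 34.4% and 18.9% with no filter, 12.5% and 7.36% with an offset of 10 CPM, and 8.64% and 4.88% with at least 100 UMIs. The median of the MHC class II partners was 0.17 at 1% MHC class II and 0.52 without any UMI of Fn1, Siglech and B-cell genes. That of interferon-stimulated genes was 0.57 in the latter setting, 0.62 without the deepest 5% of cells, 0.64 without cluster 5 and 0.61 without cells with 100 or more neutrophil UMIs, and that of immediate early genes was -0.78 with no filter. These 3 lists kept their sign in every setting run.

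Most signs that turned were of granulocyte genes. Without the deepest 5% and without cluster 5, the GMP list was at -0.045 and -0.010. At 1% and without the deepest 5%, the neutrophil list was at 4.37 and 2.42, Camp at 4.83 and 2.09, Ltf at 6.95 and 2.42, S100a9 at 3.70 and 2.77, and Lcn2 at 3.20 and 0.46. Both settings drop the 2 control cells rich in neutrophil genes, with MHC class II shares of 0.644% and 0.541% and 13513 and 23296 UMIs. The 1% limit keeps a Tet2 KO cell of that kind at 1.70%, and the depth limit keeps another with 6866 UMIs. The positive values of the neutrophil list in these settings thus rest on few Tet2 KO cells. At 1%, without the deepest 5% and without cluster 5, Wfdc21 was at 6.68, 4.64 and 2.65, Ngp at 4.37, 3.57 and 0.88, S100a8 at 4.53, 3.63 and 0.34, Hp at 1.18, 0.74 and 0.63, and Apoe at 2.74, 0.81 and 1.08. Without cells with 100 or more neutrophil UMIs, Wfdc21 was at 3.01, Ngp at 0.85, Ltf at 0.045, S100a8 at 0.62, Hp at 0.87, Apoe at 1.26 and Cd74 at -0.029. Mcpt8 was at -0.70 at 1% and -0.30 without cluster 5. At 1%, Cd74 was at -0.12 and H2-Ab1 at -0.069, and with at least 100 UMIs the cytokine receptors were at -0.38, from 4 genes. The cause was not tested beyond leaving out these cells. Leaving out cluster 5, leaving out the cells with neutrophil UMIs and the limit of 100 UMIs were chosen after seeing the data. Weighting to equal cluster shares was not run, since no cluster held 50 cells in both libraries. Over a set of named genes (not all genes) and the alternative settings, 455 ratios lay inside the interval of the main setting. Another 34 changed sign where that interval excluded 0, and 68 lay outside it otherwise.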
